A study of Mus musculus with 19 samples.

Results

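Liver RNA of 12 mice with at least 1 mutant Pkd1 allele was compared with that of 7 WT mice, with the Het and Homo mice taken as 1 group. This is a dominant model: it asks which genes are already shifted with 1 mutant allele, and a gene that differs between Het and Homo counts against it through a wider spread. All 19 libraries of the series took part: the 6 Het libraries (mice 4, 6, 7, 14, 19 and 20), the 6 Homo libraries (mice 8, 10, 15, 16, 17 and 18) and the 7 WT libraries (mice 1, 2, 3, 9, 11, 12 and 13), where the number is the one that ends each sample title. The comparison was repeated in 16 libraries, with WT limited to mice 9, 11, 12 and 13, because mice 1 to 3 are all WT and no mutant has a number as low. Every mouse, WT included, had received AAV-Cre, a viral vector that brings in Cre recombinase, and every mouse was on Western diet with the liver toxin carbon tetrachloride (CCl4) for 3 months, a model of non-alcoholic steatohepatitis. The labels give the genotypes as WT, Het and Homo with AAV-Cre. They name neither the promoter that drives Cre nor the part of Pkd1 that is deleted, and give no age, sex or litter, although the series calls the mice littermates. WT therefore controls for the vector and the diet. The share of cells that the vector reached is not given in the labels.

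Pkd1 encodes polycystin-1, a large membrane protein that works with polycystin-2, the product of Pkd2, at the primary cilium. Loss of either gene gives cysts of kidney tubules and bile ducts, and in people with polycystic disease 1 mutant allele is inherited and cysts arise from cells in which the other allele is lost as well. Hepatocytes, the bulk of liver RNA, lack a primary cilium, whereas bile duct cells carry one.

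Each library held between 25.8 and 42.1 M counts (M, mega), with 35.6 ± 2.20 M in WT (SD, n = 7) and 34.2 ± 4.28 M in the 12 mutants. Levels are given as CPM, counts scaled to a common library size after TMM scaling. In all libraries hepatocyte genes were high (Alb, albumin, between 7898 and 13652 CPM), and markers of bile duct, Kupffer, stellate and sinusoidal cells were present. Adipocyte markers summed to at most 7.84 CPM. Pancreas markers summed to between 133 and 279 CPM in 3 mutant libraries (Het mouse 19 and Homo mice 8 and 17) and to at most 3.18 CPM in the other 16, with Prss1, trypsinogen, at 0 in all; what these transcripts contribute to the results was not tested beyond a fit without these 3 libraries. The labels name separate mice and nothing more about how replicates were made. In bulk RNA of this kind, fewer cells of a type and less RNA per cell cannot be told apart.

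Pkd1 itself ranged in WT from 328 to 452 CPM (median 412) and in the 12 mutants from 334 to 445 CPM (median 370). The ranges overlapped: WT mouse 1 was the lowest library of all and WT mouse 12 the highest. The pooled log2 fold change was -0.12 ± 0.07 (SE; edgeR adjusted p = 0.466), and the difference in mean log2 CPM was -0.12 (exact permutation p = 0.0991, two-sided). Without mice 1 to 3 that difference was -0.20 (exact permutation p = 0.0181), while the adjusted p over all genes was 0.635. Counts over the whole gene need not show a deletion of part of it, so these values do not check the genotype labels. Pkd2 lay between 9.59 and 24.6 CPM in WT and between 8.55 and 28.7 CPM in the mutants, with a pooled log2 fold change of 0.16 ± 0.22 (adjusted p = 0.809).

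Pooled against WT, 9 genes were called at an adjusted p under 0.05 (edgeR quasi-likelihood test, Benjamini-Hochberg over 16463 genes), which is 0.0547% of those tested. The 5 higher genes (0.0304%) were Abca3, a lipid transporter; D330041H03Rik, a long noncoding RNA; Atp6v0c-ps2, a pseudogene; Chd1, a chromatin remodeler; and Slc25a30, a mitochondrial carrier. The 4 lower genes (0.0243%) were Atp6v0c, a subunit of the vacuolar proton pump; Rps2, a ribosomal protein; Slco1a4, an organic anion transporter; and Spata22, a meiosis gene. Without adjustment 2075 genes (12.6%) had a p under 0.05, and 80 (0.486%) had an adjusted p under 0.10. DESeq2 called 233 on the same libraries, including 8 of the 9; for Atp6v0c-ps2 it gave no adjusted p. Limma-voom with sample quality weights called 9 (4 higher, 5 lower), of which 8 were the same genes, without Slc25a30. The 9 fall to 5 without the 3 libraries with pancreas markers, an alternative chosen after seeing the data: Abca3, Atp6v0c-ps2, D330041H03Rik, Slc25a30 and Slco1a4 stayed called.

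**Figure D1:**
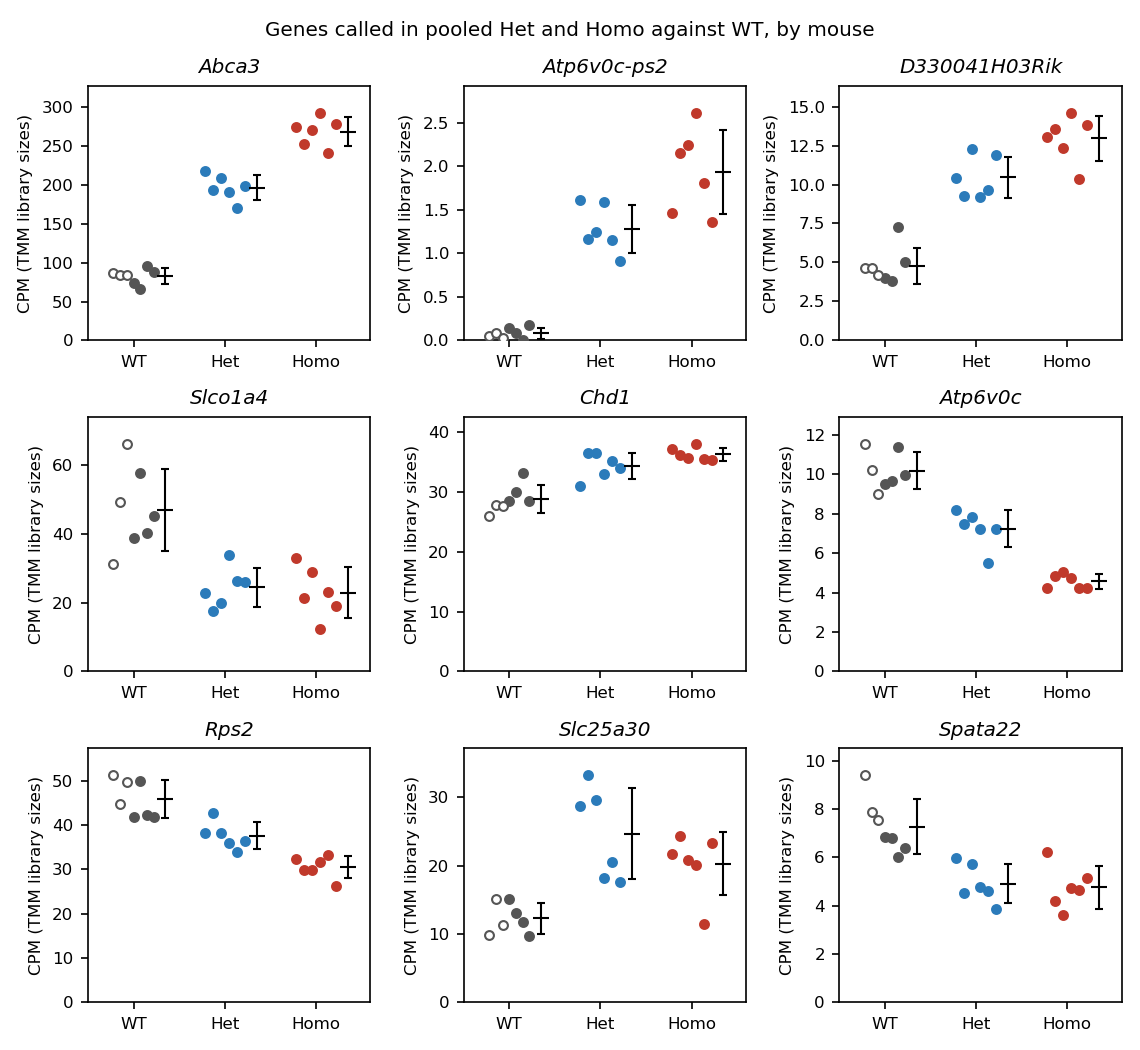
Level in CPM (TMM library sizes) of the 9 called genes, 1 point per mouse, by genotype; open circles are WT mice 1 to 3, and the bar beside each group is its mean ± SD (n = 7 WT, 6 Het, 6 Homo). In Abca3, Atp6v0c-ps2 and D330041H03Rik every mutant lies above every WT mouse, in Atp6v0c every mutant lies below, and in the other 5 panels the ranges overlap.

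Of all genes tested, 6 (0.0364%) had the 12 mutants entirely on one side of the 7 WT libraries. Abca3, Atp6v0c-ps2 and D330041H03Rik were above, and Atp6v0c, 1600002H07Rik and LOC102631757 were below. The last 2 were not called in the pooled comparison. LOC102631757, an unnamed locus without a position in the annotation used, ranged from 3.31 to 4.56 CPM in WT and from 1.03 to 3.06 CPM in the mutants (log2 fold change -0.80 ± 0.18, adjusted p = 0.0964).

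Abca3 moves phospholipids into lamellar bodies and is best known from the alveolar type II cells of the lung, where surfactant is stored. It lies 0.138 Mb from Pkd1 (GRCm38, chromosome 17, 24351921 to 24410204, plus strand). In WT it ranged from 65.6 to 96.4 CPM with a median of 84.1, and in the 12 mutants from 170 to 292 CPM with a median of 229. The lowest mutant, a Het, was well above the highest WT. Pooled, Abca3 was higher by a log2 fold change of 1.49 ± 0.11, a factor of 2.81 (adjusted p = 1.62e-07). With 4 WT libraries it was 1.52 ± 0.15 (adjusted p = 0.000106), the smallest p of that comparison as well. Het (170 to 218 CPM) and Homo (241 to 292 CPM) did not overlap either, so the pooled value is a mean of separate levels: Homo exceeded Het by 0.45 on the log2 scale (95% interval 0.28 to 0.62, adjusted p = 0.0258).

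D330041H03Rik overlaps the end of Abca3 (chromosome 17, 24409481 to 24414513), and 693 bases of their annotated transcripts are identical. The submitters' processing notes do not state whether counting used strand, so reads of the shared stretch cannot be assigned to one of them. It ranged from 3.84 to 7.25 CPM in WT (median 4.62) and from 9.22 to 14.6 CPM in the mutants (median 12.1). WT mouse 12 was the highest WT library, and still below the lowest mutant. It rose by a log2 fold change of 1.29 ± 0.13 (adjusted p = 1.17e-05), and 1.22 ± 0.17 with 4 WT libraries (adjusted p = 0.00532). Homo differed from Het by 0.31 (95% interval 0.03 to 0.59), which did not pass (adjusted p = 0.75).

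None of the other 10 tested ABCA transporters was called; Abca7, which handles phospholipids and phagocytosis, came next with 0.28 ± 0.08 (adjusted p = 0.189). Among 5 tested surfactant and lamellar body genes Abca3 was again the single call. Sftpd, surfactant protein D, was low in all libraries, at 0.176 to 0.695 CPM in WT, 0.203 to 0.568 CPM in Het and 0.511 to 2.69 CPM in Homo. Its pooled value was 0.95 ± 0.45 (adjusted p = 0.389). Nkx2-1, the lung lineage factor, was at 0.

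Atp6v0c and Atp6v0c-ps2 moved in opposite directions and are near-copies of each other. Atp6v0c, the proteolipid of the rotor ring through which the vacuolar pump carries protons, lies 0.379 Mb from Pkd1 (chromosome 17, 24163865 to 24169678, minus strand). Atp6v0c-ps2 is an annotated transcribed pseudogene on another chromosome (chromosome 6, 37805975 to 37807107). Over the 465 coding bases of Atp6v0c, the annotated pseudogene transcript differs at 1 base, T111C, with the base of Atp6v0c first and positions counted from 1 at the first base of the start codon. The stretch from base 81 to base 141 is shown because it holds that base, in capitals, and a read must cover it to tell these transcripts apart within the coding region; on either side the copies are identical over 110 and 354 bases. The sequences are those of GENCODE M21 transcripts (GRCm38). The positions given for Atp6v0c-ps2 span 1133 bases, and those beyond the 465 of its transcript were not compared.
Atp6v0c: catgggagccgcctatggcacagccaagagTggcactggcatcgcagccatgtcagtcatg
Atp6v0c-ps2: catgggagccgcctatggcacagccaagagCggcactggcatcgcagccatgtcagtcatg

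Counts of Atp6v0c-ps2 were between 0 and 6 reads in WT libraries, 32 to 53 in Het and 49 to 90 in Homo. As CPM, WT ranged from 0 to 0.179 (median 0.0802) and the mutants from 0.912 to 2.61 (median 1.53). Every mutant was above every WT, and Het and Homo overlapped. This gave a pooled log2 fold change of 4.26 ± 0.38 (adjusted p = 2.11e-06), and 3.94 ± 0.47 with 4 WT libraries (adjusted p = 0.000991). Homo against Het was 0.60 (95% interval -0.05 to 1.25, adjusted p = 0.837).

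Atp6v0c ranged from 9.03 to 11.5 CPM in WT (median 9.96), from 5.52 to 8.20 CPM in Het and from 4.24 to 5.05 CPM in Homo. The 3 genotypes formed 3 separate ranges, with Het between the other 2. The pooled log2 fold change was -0.79 ± 0.14 (adjusted p = 0.0354). Homo against Het was -0.67 (95% interval -0.87 to -0.46, adjusted p = 0.00496). With 4 WT libraries the size was the same, -0.78 ± 0.18, and the adjusted p was 0.412.

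Of the reads counted on either copy, Atp6v0c-ps2 took 0 to 1.77% in WT (mean 0.80% ± 0.63, SD, n = 7), 11.2 to 18.1% in Het (15.0% ± 2.65, n = 6) and 24.4 to 35.4% in Homo (29.4% ± 4.02, n = 6). In WT mouse 12 the share was 0 of 372 reads, which allows up to 0.806% by counting error alone. The groups did not overlap. The sum of both copies was 10.3 ± 0.92 CPM in WT, 8.52 ± 1.06 CPM in Het and 6.50 ± 0.80 CPM in Homo. With both rows summed, an alternative chosen after seeing the data, the pooled log2 fold change was -0.45 ± 0.11 and no longer passed (adjusted p = 0.101); for this 1 sum, the exact permutation p was 0.000754, and 0.00495 with 4 WT libraries. Which of the copies the reads came from cannot be read from the counts. Of the other 19 tested subunits and assembly factors of the pump none was called, and Atp6v1h was next (-0.14 ± 0.06, adjusted p = 0.359).

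**Figure D2:**
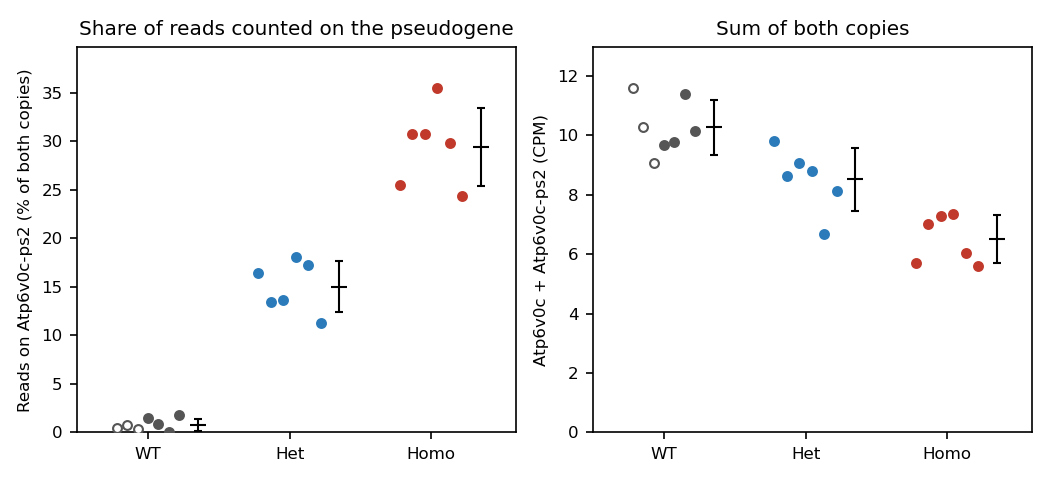
Left, reads counted on Atp6v0c-ps2 as a percent of those on both copies; right, the sum of both copies in CPM; 1 point per mouse, open circles WT mice 1 to 3, bars mean ± SD (n = 7 WT, 6 Het, 6 Homo). The share runs from at most 1.77% in WT to at least 24.4% in Homo with Het between, while the sum has a mean of 10.3 CPM in WT and 6.50 CPM in Homo.

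Slco1a4 takes up bile acids, steroid conjugates and other organic anions across the sinusoidal membrane of hepatocytes (chromosome 6, 141805438 to 141856284, minus strand). It ranged from 31.1 to 66.0 CPM in WT (median 45.0) and from 12.2 to 33.7 CPM in the mutants (median 22.9). WT mouse 1 was the lowest WT library and overlapped with Homo mouse 8 and Het mouse 14; the other 6 WT libraries were above every mutant. The gene fell by 0.99 ± 0.17 on the log2 scale (adjusted p = 0.0296). Homo against Het was -0.09, with a 95% interval from -0.53 to 0.35. Of 20 tested genes of bile acid synthesis and transport it alone was called, and the list's median was -0.03 beside 0.00076 for all genes.

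Slc25a30 is a carrier of the inner mitochondrial membrane (chromosome 14, 75757534 to 75787037, minus strand). WT libraries held 9.75 to 15.1 CPM (median 11.8) and mutants 11.4 to 33.2 CPM (median 21.3). Homo mouse 17, one of the libraries with pancreas markers, lay within the WT range, and the other 11 mutants were above all WT mice. The pooled log2 fold change was 0.87 ± 0.16 (adjusted p = 0.0493), and limma-voom did not call it (0.80, adjusted p = 0.0723). It was the gene among the 9 with a larger value in Het (1.00 ± 0.18) than in Homo (0.72 ± 0.18), neither of which passed on its own (adjusted p = 0.0551 and 0.079), and Homo against Het was -0.28 (95% interval -0.66 to 0.10).

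Spata22 takes part in meiotic recombination (chromosome 11, 73326560 to 73346592, plus strand, overlapping Aspa). It ranged from 6.00 to 9.39 CPM in WT (median 6.84) and from 3.63 to 6.22 CPM in the mutants (median 4.69). Homo mouse 8 was above WT mouse 12, and the other mutants were below all WT libraries. WT mice 1 to 3 were the highest, at 7.54 to 9.39 CPM. The pooled log2 fold change was -0.59 ± 0.11 (adjusted p = 0.0493), and -0.43 ± 0.13 with 4 WT libraries (adjusted p = 0.469).

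Chd1 remodels nucleosomes at transcribed genes (chromosome 17, 15704967 to 15772612, 8.78 Mb from Pkd1). WT held 25.9 to 33.2 CPM (median 28.5) and the mutants 30.9 to 37.9 CPM (median 35.5). WT mouse 12 reached into the range of Het mice 4 and 14. The pooled difference was small, 0.30 ± 0.05 (adjusted p = 0.0354), a factor of 1.23.

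Rps2 is a protein of the small ribosomal subunit (chromosome 17, 24718121 to 24721927, plus strand, 0.122 Mb from Pkd1). It ranged from 41.7 to 51.2 CPM in WT (median 44.6) and from 26.4 to 42.8 CPM in the mutants (median 33.6), with Het mouse 6 the single mutant inside the WT range. The pooled log2 fold change was -0.43 ± 0.08 (adjusted p = 0.0493). Het and Homo did not overlap, at 34.0 to 42.8 and 26.4 to 33.3 CPM; the difference of -0.30 did not pass (adjusted p = 0.176). Rps2 has 31 annotated pseudogenes at 95% identity or more over at least 100 bases, so its count depends on how reads with several matches were treated, which is not given in the sources used here.

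With WT limited to mice 9, 11, 12 and 13, 3 genes were called (0.0182%): Abca3, Atp6v0c-ps2 and D330041H03Rik, all higher. In this fit, with Het and Homo as 1 group, edgeR called no gene lower, with 585 lower (3.55%) at an unadjusted p under 0.05. Limma-voom called 1 lower and DESeq2 15. The other 6 kept their direction. Slco1a4 was at -0.94 ± 0.19 (adjusted p = 0.192), Slc25a30 at 0.85 ± 0.21 (0.423), Rps2 at -0.37 ± 0.10 (0.423) and Chd1 at 0.23 ± 0.06 (0.423). Against these 4 WT libraries, 39 genes (0.237%) had all 12 mutants on one side. The repeat shares its 12 mutants and 4 WT libraries with the first comparison and is not independent of it.

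The comparisons of Het and of Homo with WT share the WT libraries, so their values are given side by side. Het against WT called 4 genes (0.0243%): Abca3 (1.25 ± 0.08), Atp6v0c-ps2 (3.93 ± 0.38) and D330041H03Rik (1.13 ± 0.13) higher, and 1600002H07Rik (-0.82 ± 0.12) lower. Homo against WT called 79 (0.48%), with 8 of the 9 pooled genes among them and not Slc25a30. There Abca3 was at 1.70 ± 0.08, Atp6v0c-ps2 at 4.53 ± 0.38 and D330041H03Rik at 1.44 ± 0.13. Homo against Het, which uses no WT library in its difference, called 30 genes (0.182%), and of the 9 these were Abca3 and Atp6v0c.

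The way the mean CPM moved from WT to Homo shows where Het stood. The Het mean had covered 52.3% of the distance in Atp6v0c and 54.2% in Rps2, close to its middle. It had covered 61.3% in Abca3, 64.4% in Atp6v0c-ps2, 69.4% in D330041H03Rik and 74.1% in Chd1. In Slco1a4 and Spata22 it was at 93.8% and 94.1%, and in Slc25a30 at 154%, beyond Homo. These shares carry the error of 3 means. A test of Het against the midpoint of WT and Homo on the log2 scale called no gene in edgeR (940 at an unadjusted p under 0.05, or 5.71%; DESeq2 called 23). At an adjusted p under 0.10 there were 2 (0.0121%), Abca3 (0.40 above the midpoint, 95% interval 0.26 to 0.54) and Atp6v0c-ps2 (1.67 above, 1.08 to 2.25), both with an adjusted p of 0.0842. A Het mean midway in CPM lies above the midpoint on the log2 scale. A departure above it therefore does not by itself set an equal shift apart from one that grows with allele number. For Slco1a4 the departure was -0.42 (-0.81 to -0.04, adjusted p = 0.835) and for Slc25a30 0.64 (0.32 to 0.96, adjusted p = 0.468). Abca3 and Atp6v0c thus differed between Homo and Het. For the other 7 neither the difference between Homo and Het nor the departure from the midpoint passed, so an equal shift with 1 and 2 alleles and a shift that grows with allele number cannot be told apart for them in these libraries.

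**Figure D3:**
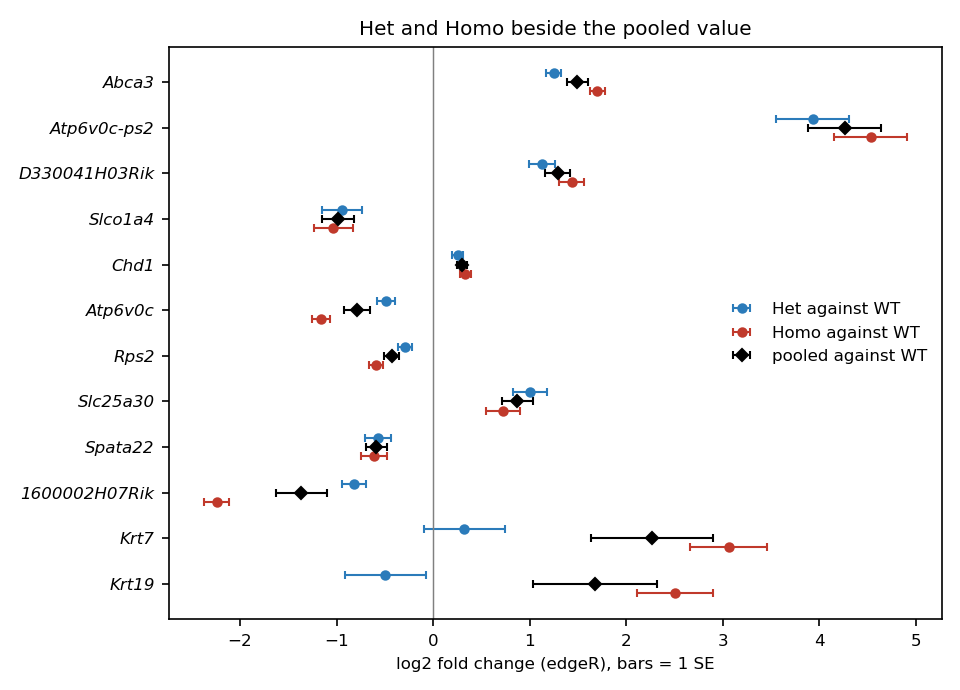
Log2 fold changes against WT of Het (blue), Homo (red) and both pooled (black diamonds), with bars of 1 SE, for the 9 called genes and for 1600002H07Rik, Krt7 and Krt19. Slco1a4, Chd1 and Spata22 differ by at most 0.09 between Het and Homo, whereas Krt7 and Krt19 are near 0 or below in Het and above 2 in Homo.

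Genes that differ between Het and Homo show what pooling leaves out. 1600002H07Rik, renamed Tedc2 and tied to the delta and epsilon tubulins of centrioles (chromosome 17, 24215054 to 24220934, minus strand), ranged from 93.5 to 133 CPM in WT, from 47.4 to 74.5 CPM in Het and from 19.2 to 32.4 CPM in Homo. No ranges overlapped. Homo against Het was -1.42 ± 0.13 (adjusted p = 1.26e-05), and the pooled value of -1.36 ± 0.26 missed the threshold (adjusted p = 0.0565). Krt7 and Krt19 are keratins of bile duct cells. Both were chosen as genes that differ between Het and Homo, with earlier results of these data known, so their values illustrate pooling and do not test it. Krt7 was at 0.0755 to 0.584 CPM in WT, 0.21 to 0.504 CPM in Het and 1.03 to 4.19 CPM in Homo; Het lay inside the WT range and Homo above it. The pooled value of 2.27 ± 0.63 did not pass (adjusted p = 0.161), with 0.32 ± 0.42 in Het and 3.06 ± 0.40 in Homo. Krt19 gave 1.68 ± 0.64 pooled (adjusted p = 0.285), -0.49 ± 0.42 in Het and 2.50 ± 0.39 in Homo. When the 3 genotypes were kept apart in the fit and the mean of Het and Homo was set against WT, the spread between Het and Homo no longer entered the error and 20 genes were called, the 9 among them. The added 11 included 1600002H07Rik (-1.53 ± 0.10) and Ccnf, a cyclin that marks proteins for destruction (-1.12 ± 0.17). In the repeat the contrast of the mean of Het and Homo with WT called 7, the 3 genes called there before and 4 lower ones. The lower ones were 1600002H07Rik (-1.44 ± 0.12, adjusted p = 7.34e-06), Atp6v0c (-0.82 ± 0.09, adjusted p = 0.00056), Riok2 and Rnps1 (both with an adjusted p of 0.0484).

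Chromosome 17, which carries Pkd1, held 5 of the 9 called genes, and 788 of its genes were tested (0.635% called). Within 1 Mb of Pkd1, 4 of 75 tested genes were called (5.33%), namely Abca3 and D330041H03Rik higher and Atp6v0c and Rps2 lower. From 1 to 10 Mb it was 1 of 234, Chd1; on the rest of the chromosome 0 of 479, where 64 genes (13.4%) were at an unadjusted p under 0.05; and on other chromosomes 4 of 15068 (0.0265%). The share at an unadjusted p under 0.05 was 37.3% within 1 Mb, 19.7% from 1 to 10 Mb and 12.6% on other chromosomes. With 4 WT libraries these shares were 33.3%, 13.2% and 6.74%. The direction within 1 Mb was mixed: 32 of 75 genes were above 0, and the median was -0.08. The median size of the difference, sign aside, was 0.22 there and 0.12 on other chromosomes. Tsc2, which overlaps the end of Pkd1 and restrains mTORC1, was at -0.05 ± 0.06 (adjusted p = 0.735). A segment inherited with the Pkd1 alleles and an effect of Pkd1 loss cannot be told apart for these neighbours in this design. With all chromosome 17 genes taken out, 1 gene stayed called, Atp6v0c-ps2. It is placed here by its annotated position on chromosome 6. Whether its reads came from it or from Atp6v0c, on chromosome 17, cannot be read from the counts. Slco1a4 came to an adjusted p of 0.0573 and Slc25a30 and Spata22 to 0.107, with the log2 fold changes as before. The adjusted p depends on a gene's rank among the genes kept, and chromosome 17 genes with a small p had been taken out.

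**Figure D4:**
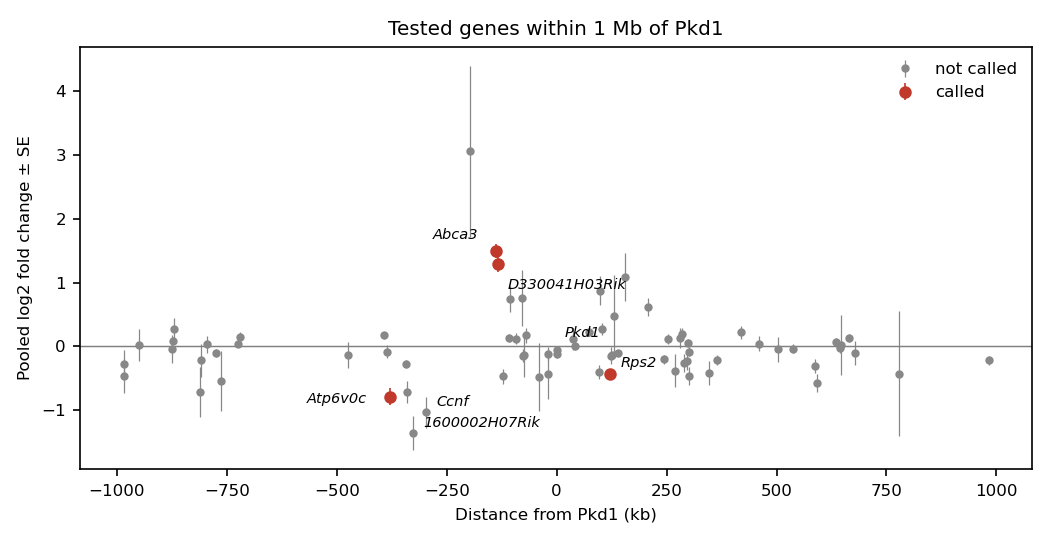
Pooled log2 fold change (± SE) of the 75 tested genes within 1 Mb of Pkd1 against their distance from it in kb, with called genes in red. The called genes sit on both sides of 0, and the highest point is Abca17 (3.06 ± 1.34, adjusted p = 0.349), which overlaps Abca3 and was named after its value was seen.

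Across 37 gene lists for the tissue and the diet, the called members were those already named: Abca3 (ABCA transporters, surfactant), Atp6v0c (proton pump) and Slco1a4 (bile acids). All other members missed the threshold, so the lists are described by how many members lay on each side of 0, beside 50.2% above 0 over all genes. The lists were chosen with earlier results of these mice known.

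Among cell type lists, 15 of 18 bile duct genes were above 0 with a median of 0.34, but the medians were -0.23 in Het and 0.80 in Homo, so the pooled median describes neither genotype. The summed level of the list was 202 to 323 CPM in WT, 202 to 283 CPM in Het and 293 to 399 CPM in Homo. Such a sum leans on the most abundant members: over all libraries Spp1 alone was at 50.4 to 148 CPM, and Krt19 at most at 10.1 CPM. Stellate cell and fibrosis genes had a median of 0.02 with 13 of 24 above 0. At an unadjusted p under 0.05, 1 of them was higher, Postn, and 1 was lower, the collagen gene Col4a1. That is 4.17% each way, below the 6.35% higher and 6.26% lower over all genes. Postn, a matrix protein made by stellate cells once activated, had a value of 0.38 ± 0.12 (adjusted p = 0.222). With 4 WT libraries it was at 0.24 (adjusted p = 0.763). Col4a1 was at -0.29 ± 0.11 (adjusted p = 0.288). Macrophage and Kupffer cell genes had a median of -0.06 with 9 of 16 below 0. Of 11 endothelial genes, 8 were below 0 and 11 with 4 WT libraries, with medians of -0.09 and -0.10; Lyve1, a hyaluronan receptor of sinusoidal endothelium, was lowest at -0.63 ± 0.13 (adjusted p = 0.0964).

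Of 20 oxidative phosphorylation genes 19 were below 0, with a median of -0.09, and in the repeat all 20, with a median of -0.08. Of 22 fatty acid oxidation genes 17 were above 0 in both comparisons (medians 0.12 and 0.07). Fatty acid and triglyceride synthesis changed sign with the WT mice used, from -0.11 to 0.03; Srebf1, the transcription factor that drives it, was at -0.58 ± 0.15 with 7 WT libraries and -0.41 ± 0.18 with 4 (adjusted p = 0.127 and 0.679). Cholesterol synthesis had medians of 0.09 and 0.15. Apoc3, an inhibitor of triglyceride clearance, went from 749 to 1050 CPM in WT and from 614 to 860 CPM in the mutants (-0.33 ± 0.07, adjusted p = 0.0964), and its value with 4 WT libraries was -0.19 ± 0.08.

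Of 22 interferon response genes 20 were above 0 pooled and 17 in the repeat, with medians of 0.11 and 0.20. The medians were 0.04 in Het and 0.23 in Homo. Ifi44, an interferon-induced gene, was at 0.62 ± 0.16 (adjusted p = 0.121) and Usp18, which damps interferon signalling, at 0.50 ± 0.14 (adjusted p = 0.165). Of 18 acute phase proteins 16 were below 0 (medians -0.13 and -0.10). Hmox1, which degrades heme, was at -0.41 ± 0.10 with 7 WT libraries and -0.45 ± 0.12 with 4 (adjusted p = 0.0994 and 0.423).

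The unfolded protein response turned on the WT mice chosen. Against 7 WT libraries 18 of 20 genes were below 0, with a median of -0.24, the lowest of the lists plotted; against 4 it was 0.06, with 15 above 0. Dnajb9, which helps fold proteins in the endoplasmic reticulum, was at -0.57 ± 0.20 pooled and at 0.14 ± 0.11 in the repeat (adjusted p = 0.238 and 0.831). WT libraries ranged from 16.4 to 51.5 CPM in this gene and mutants from 20.1 to 31.9 CPM, so both ends of the range were WT: mice 1 to 3 were at 51.3 to 51.5 CPM and the other 4 WT mice at 16.4 to 23.3 CPM. Targets of ATF4, the factor of the amino acid and stress response, had medians of -0.03 and 0.37.

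**Figure D5:**
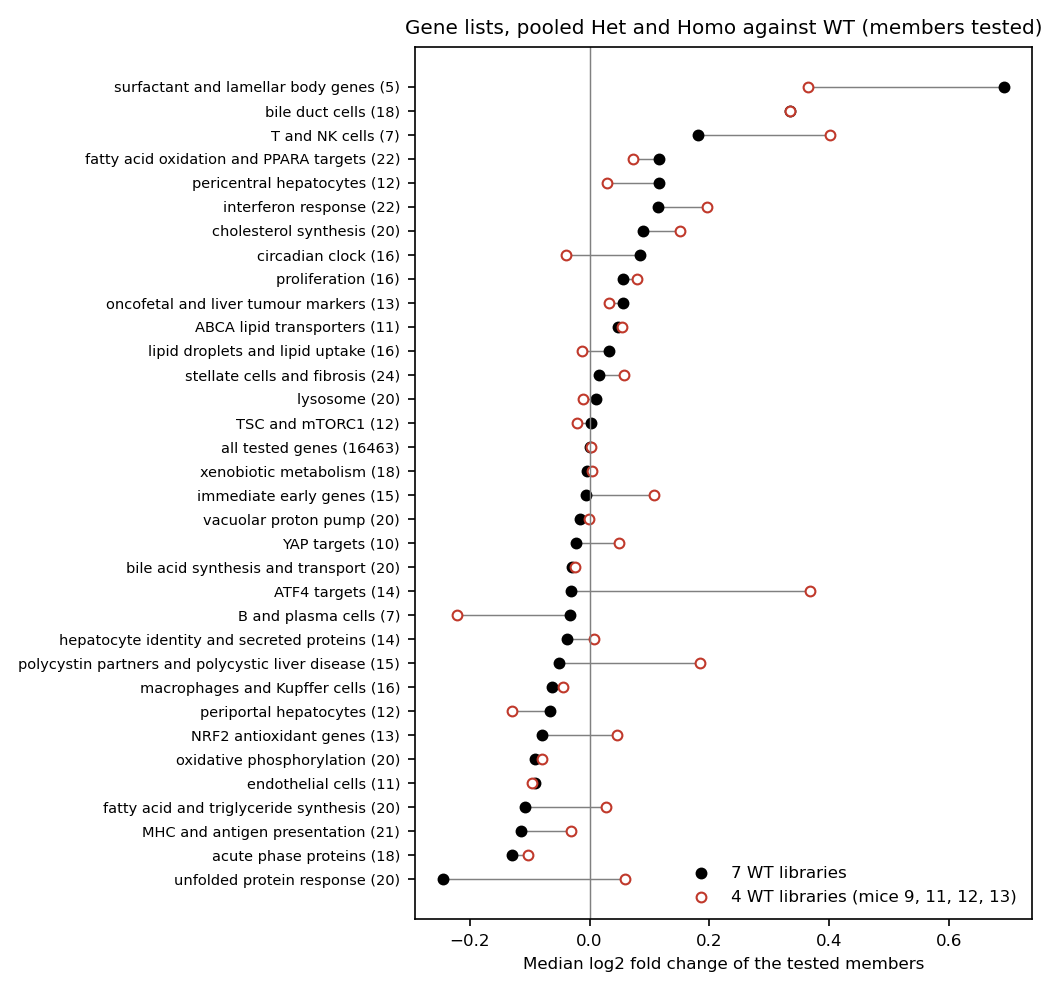
Median log2 fold change of the tested members of each gene list in pooled Het and Homo against 7 WT libraries (black) and against WT mice 9, 11, 12 and 13 (open red); the number of tested members is in brackets, lists with fewer than 5 are left out. Most medians lie within 0.2 of 0, and the unfolded protein response changes from -0.24 to 0.06 between the 2 sets of WT mice.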

How the data were processed

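RNA was measured in 19 mouse livers, 1 library each, from total RNA with a NuGen Ovation mouse kit, per the labels' protocols. The authors deposited raw counts per gene symbol (35976 rows, 27 with a date in place of a symbol, which no result names). STAR 2.7.2b, featureCounts 1.6.4 and GRCm38 stand in the submitters' processing notes; their settings are not given in these sources. Intervals and floors on read shares cover counting error only.

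Counts were analysed in R 4.3.3 with edgeR 4.0.16 (TMM, filterByExpr by genotype, which left 16463 genes, quasi-likelihood F test, Benjamini-Hochberg, two-sided). Every adjusted p-value is from edgeR unless another tool is named. Het and Homo formed 1 level of a 2-level factor; a 3-genotype fit gave the separate contrasts. SE is the log2 fold change over the square root of F, and intervals are 95%. Single values were compared by exact permutation, with a smallest p of 1.98e-05 (12 against 7) or 0.000549 (12 against 4). Scripts were tested on simulated counts.

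Named genes were the 12 largest called changes each way at 1 CPM or more (5 in the repeat), Het against WT calls, up to 3 members per list by p, Pkd1, Pkd2, Krt7, Krt19, called neighbours of Pkd1 and every count of 5 or fewer. The comparison, members and lists were chosen with earlier results of these data known. Positions are RefSeq GRCm38.p6: 15358 genes matched by symbol, 498 through an older symbol, and 607 have none. Alternatives were DESeq2 1.42.0, limma-voom (limma 3.58.1), other size factors and filters, the averaged contrast, mouse number as a covariate, an adjusted p under 0.10, subsets of mice or genes, and leaving out each library. Counts of any pair of libraries of 1 genotype differed by far more than sampling noise (chi-square over its degrees of freedom was 23.2 or more).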

Additional observations from a re-analysis of the deposited data

Results flagged for a closer look

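In groups of 6 or 7 mice, 1 library stood apart from the others of its genotype by Dixon's test in 6 of 114 sets of values (38 genes by 3 genotypes), and chance gives about 1 in 20. Het mouse 19 was the lowest Het library in Atp6v0c, at 5.52 CPM with the next at 7.21. WT mouse 12 was the highest WT library in D330041H03Rik, at 7.25 CPM with the next at 5.02, and in H2-T24, an MHC class I gene of chromosome 17 chosen after its values were seen, at 11.7 CPM with the next at 7.98. WT mouse 13 was the highest WT library in Krt19, at 2.99 CPM with the next at 1.36. Het mouse 4 was the highest Het library in Dnajb9, at 31.9 CPM with the next at 24.5. Homo mouse 17 was the lowest Homo library in Slc25a30, at 11.4 CPM with the next at 20.1.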

How the results depend on the processing

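The pooled count of 9 genes came to 233 with DESeq2, 4 without a filter, 20 with the averaged contrast, 4 with mouse number as a covariate, 80 at an adjusted p under 0.10, 3 with 4 WT libraries, 2 within mice 8 to 13 (1 of the 9, Abca3), 1 without chromosome 17 genes, and 5 without the 3 libraries with pancreas markers. Leaving out 1 library gave 3 to 55: 55 without WT mouse 12, 18 without Het mouse 4, 5 without WT mouse 11 or Homo mouse 8, 4 without WT mouse 1 or Homo mice 15 or 16, and 3 without WT mice 2, 3 or 13 or Homo mice 10 or 18. Abca3, Atp6v0c-ps2 and D330041H03Rik kept their call in all 19 of these fits; Slco1a4 lost it in 6, Atp6v0c in 11, Chd1 in 12, Rps2 and Slc25a30 in 14 and Spata22 in 15. Within mice 8 to 13, Abca3 alone of the 3 was called (adjusted p = 0.0268, and 0.252 for the other 2). That subset holds Homo mice 8 and 10 and WT mice 9, 11, 12 and 13, with no Het library. The log2 fold changes in it were 1.70 for Abca3, 4.11 for Atp6v0c-ps2 and 1.40 for D330041H03Rik. With mouse number as a covariate, the 4 called were Abca3, Atp6v0c-ps2, D330041H03Rik and Slc25a30 (1.04, adjusted p = 0.00457). Slco1a4, Chd1, Atp6v0c, Rps2 and Spata22 kept their direction there and were not called (adjusted p from 0.18 to 0.279). Without a filter, the 4 were Abca3, Atp6v0c-ps2, D330041H03Rik and Slco1a4. The repeat's 3 came to 38 with DESeq2 and 7 with the averaged contrast, and to 2 to 4 without 1 library. Het against WT (4) came to 28 with DESeq2. Homo against WT (79) came to 305 with DESeq2, 38 with mouse number and 25 with 4 WT libraries, Homo against Het (30) to 102 with DESeq2, and the midpoint test (0) to 23 with DESeq2. The Pkd1 difference was -0.20 with 4 WT libraries (exact permutation p = 0.0181). Dnajb9 reversed, to 0.14 with 4 WT libraries and 0.0185 within mice 8 to 13. The cause of these changes was not tested. No paired analysis was possible because each mouse has a number of its own, so the genotypes share none. At these depths Atp6v0c-ps2 rests on at most 6 reads in a WT library.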

Other observations

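Beside the 9 genes, the averaged contrast of Het and Homo against WT called 10 genes other than 1600002H07Rik, and those named here were chosen after their values were seen, Ccnf and Ifi44 excepted. On chromosome 17 these were Ccnf, Ntn3, Gfer, Rnps1, Tmem8 and Hmga1 lower and H2-T24 and Dnah8 higher; elsewhere they were Cdh13 and Ifi44, both higher. Rnps1, which binds spliced messenger RNA, was at 9.97 to 13.1 CPM in WT, 8.59 to 11.3 CPM in Het and 5.91 to 8.17 CPM in Homo; Het overlapped WT and Homo did not (averaged log2 fold change -0.49 ± 0.08, adjusted p = 0.00575). Cdh13, T-cadherin, the receptor of adiponectin, was at 4.84 to 7.95 CPM in WT and 7.52 to 12.0 CPM in the mutants (averaged 0.55 ± 0.10, adjusted p = 0.0274). WT mice 1 to 3 were the lowest, at 4.84 to 5.69 CPM, with the other 4 WT mice at 6.86 to 7.95 CPM. With those 4 the pooled value was 0.38 ± 0.11 (adjusted p = 0.469), and the averaged contrast did not call Cdh13. Dnah8, an axonemal dynein heavy chain, had an averaged value of 1.40 ± 0.28 (adjusted p = 0.0484). In the repeat with 4 WT libraries that contrast called Riok2, a kinase of ribosome assembly, also on chromosome 17 (-0.65 ± 0.11, adjusted p = 0.0484). The contrast with 7 WT libraries did not call it. WT mice 1 to 3 held 6.04 to 7.24 CPM, inside the mutant range of 5.08 to 8.23 CPM, and the other 4 WT mice 9.42 to 11.2 CPM. The call therefore depends on which WT mice are used.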
